A study of Mus musculus with 6 samples.

Results

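The genes examined here are those of the CXCR3 chemokine axis, namely the 3 ligands Cxcl9, Cxcl10 and Cxcl11 and their receptor Cxcr3. They were chosen by name, and each of the 4 had its own row among the 35275 gene rows of the count tables and was among the 15191 genes with enough counts to be tested. The 3 ligands are small chemokines that interferons induce in myeloid, endothelial and stromal cells. CXCR3 is the G protein-coupled receptor that reads them, and it is carried mainly by activated type 1 T cells and NK cells, which follow the gradient into inflamed or tumour-bearing tissue.

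Whole lungs of Balb/c mice gave the RNA. They were taken 7 days after 250000 4T1 cells, from a breast cancer line of the mouse that grows in the lung, had been injected into a tail vein. The KO group (3 libraries) received 4T1 cells lacking PD-L1, and the WT group (3 libraries) received the WT 4T1 cells. All lungs were perfused with 20 mL of PBS. The labels name no edit in the host mice, and they do not say how the KO cells were made, whether they are 1 clone, or the age of the mice. A difference in tumour load cannot be told apart from the loss of PD-L1. The series title ties tumour PD-L1 to interferon and T cell recruitment, so the question here is how RNA of the chemokines that recruit such cells, and of their receptor, differed between these lungs. In RNA of a whole organ, more cells of a type and more RNA per cell cannot be told apart.

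Libraries held 14711459 to 16932114 counts over 17520 to 19156 detected genes. The targeted gene Cd274 had 1514, 3013 and 4929 counts in the KO libraries and 910, 912 and 1132 counts in the WT libraries (log2 difference 1.65, edgeR adjusted p = 0.161). The libraries labelled KO thus had the higher counts. Host lung cells keep the gene, so these counts in whole-lung RNA do not check the labels. Keratins and Epcam, which 4T1 cells share with lung epithelium, summed to 407.5 to 428.0 CPM (counts scaled by library size) in KO lungs and 360.5 to 413.8 CPM in WT lungs. Lung markers were high in every library, with epithelial markers at 12456 to 15384 CPM in KO lungs and 11891 to 12944 CPM in WT lungs.

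RNA of all 4 axis genes was higher in each KO library than in any WT library. Cxcl10 and Cxcl11 passed the test across all genes (edgeR adjusted p below 0.05), while Cxcl9 and Cxcr3 did not. All 4 had an unadjusted p below 0.05. The fitted increases were about 10-fold for Cxcl9 and Cxcl11, about 6-fold for Cxcl10 and about 2-fold for Cxcr3. Among all tested genes, 1.12% passed as higher in KO lungs, 0.336% as lower and 1.45% in either direction. The KO libraries were all above the WT libraries in 10.3% of genes and all below them in 9.4%, and 8.29% were higher with an unadjusted p below 0.05 (14.6% in either direction). The axis genes were picked with earlier results of these data known, so those shares serve as a scale and not as a test.

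Cxcl10 (ENSMUSG00000034855, chromosome 5, 92346638 to 92348889, minus strand, GRCm38) encodes IP-10, a ligand inducible by type I and type II interferon. It had 313, 753 and 1118 counts in KO replicates 1 to 3 and 123, 90 and 136 counts in WT replicates 1 to 3. Scaled by library size this was 20.1, 49.3 and 68.2 CPM in KO lungs and 8.46, 5.28 and 8.93 CPM in WT lungs. The WT libraries lay close together and the KO libraries were spread 3.38-fold from the lowest to the highest, with KO replicate 1 lowest. The log2 fold change was 2.61 ± 0.44 (SE), with a 95% confidence interval of 1.58 to 3.64 (edgeR adjusted p = 0.0416), which ranked 22nd by size among all tested genes.

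Cxcl11 (ENSMUSG00000060183, chromosome 5, 92359544 to 92365485, minus strand) encodes I-TAC, the third ligand, which also binds the atypical receptor ACKR3. The annotation types it as a polymorphic pseudogene because the reference strain, C57BL/6, carries a disrupted allele; Balb/c mice are known to carry an intact one. Its counts were 73, 162 and 443 in the KO libraries and 16, 39 and 10 in the WT libraries, or 4.70, 10.6 and 27.0 CPM in KO lungs and 1.10, 2.29 and 0.656 CPM in WT lungs. Among the ligands it had the fewest counts and the widest spread within both groups (5.75-fold in KO lungs, 3.49-fold in WT lungs). The log2 fold change was 3.36 ± 0.68 (95% interval 1.84 to 4.89, edgeR adjusted p = 0.0487), the 4th largest of all tested genes. The call sat at the threshold, since with DESeq2-type size factors in the same test the adjusted p was 0.0505, and with limma-voom it was 0.149. Cxcl11 passed with DESeq2 (adjusted p = 0.00441) and with edgeR without robust estimation of the spread (0.0149).

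Cxcl9 (ENSMUSG00000029417, chromosome 5, 92321347 to 92328079, minus strand) encodes MIG, the ligand that depends most on interferon gamma. It had 472, 1117 and 2411 counts in KO lungs and 199, 75 and 106 counts in WT lungs. This corresponded to 30.4, 73.2 and 147.0 CPM in the KO libraries and 13.7, 4.40 and 6.96 CPM in the WT libraries. Its groups came nearest to each other at KO replicate 1 and WT replicate 1. The log2 difference of 3.33 ± 0.75 (95% interval 1.46 to 5.21) was the 5th largest of all tested genes, yet it did not pass (edgeR adjusted p = 0.133). The moderated spread estimated for Cxcl9 (quasi-likelihood dispersion 15.9) was larger than for Cxcl10 (4.44), Cxcl11 (3.56) and Cxcr3 (0.791). Cxcl9 passed with DESeq2 (adjusted p = 0.00115), with limma-voom (0.0373) and with edgeR without robust estimation of the spread (0.00671, dispersion 6.99). It did not pass by edgeR with DESeq2-type size factors (adjusted p = 0.133) or with a replicate block (0.383).

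Cxcr3 (ENSMUSG00000050232, chromosome X, 101731535 to 101734269, minus strand) was the least counted of the 4 genes in KO lungs. It had 46, 80 and 67 counts in KO lungs and 19, 37 and 30 counts in WT lungs, which is 2.96, 5.24 and 4.08 CPM in KO lungs and 1.31, 2.17 and 1.97 CPM in WT lungs. The groups did not overlap, and they came nearest to each other at KO replicate 1 and WT replicate 2. The log2 difference was 1.17 ± 0.45 (95% interval 0.21 to 2.12), which did not pass over all genes (edgeR adjusted p = 0.235, unadjusted p = 0.0202). The interval thus ran from a small increase to one larger than the fitted value.

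**Figure D1:**
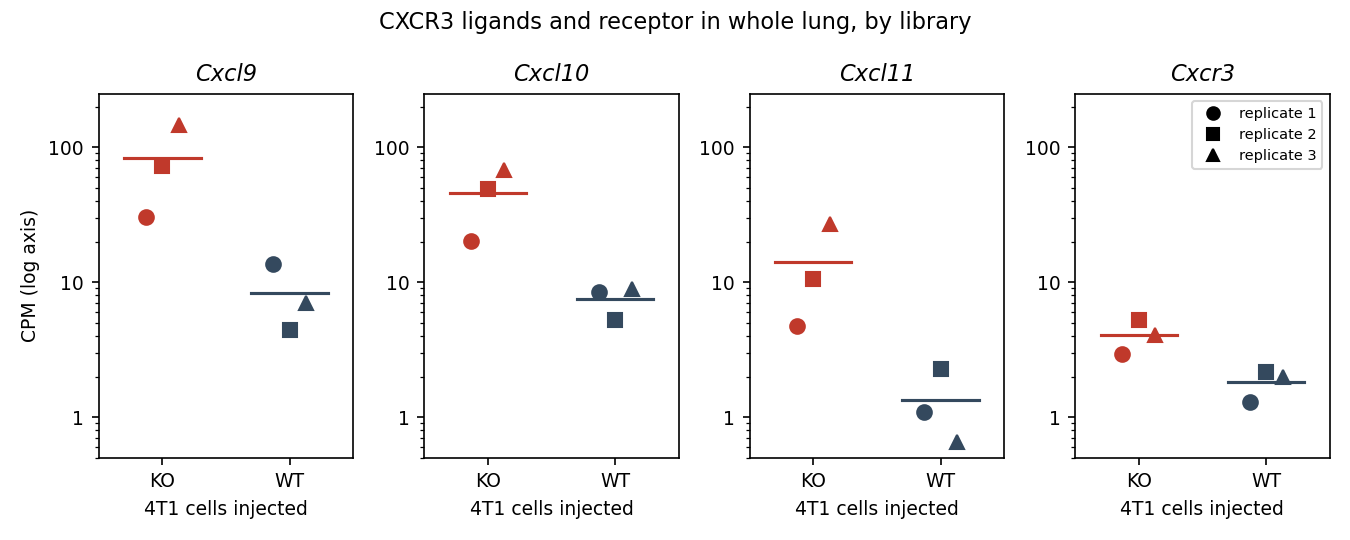
CPM (log axis) of Cxcl9, Cxcl10, Cxcl11 and Cxcr3 in each library, KO lungs left of WT lungs; each symbol is 1 library and the horizontal lines are group means of 3 libraries. All KO points lie above all WT points in each panel, KO replicate 1 is the lowest KO point in each, and the ligand panels show a wider separation than the Cxcr3 panel.

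The calls depended on single libraries. Without KO replicate 1, the log2 fold change of Cxcl9 was 3.73 and it passed (edgeR adjusted p = 0.0319). Cxcl10 lost its call without KO replicate 2 (adjusted p = 0.167) or WT replicate 1 (0.193), 2 (0.157) or 3 (0.112). Cxcl11 lost its call without KO replicate 2 (0.164) or 3 (0.0827) or WT replicate 1 (0.262), 2 (0.116) or 3 (0.138). The sizes moved less than the calls. They ranged from 2.20 to 2.96 on the log2 scale for Cxcl10, from 2.48 to 4.00 for Cxcl11, from 2.64 to 3.88 for Cxcl9 and from 0.95 to 1.35 for Cxcr3, which passed in no such fit. Among the KO libraries, replicate 1 was lowest for all 4 genes and also had the lowest summed T cell markers (126.3 CPM), monocyte and macrophage markers (401.6 CPM) and dividing-cell markers (75.4 CPM). It had the highest summed NK cell (121.2 CPM), B cell (196.5 CPM), endothelial (5527 CPM) and lung epithelial markers (15384 CPM) among the KO libraries. The part of these cells in its lower chemokine level was not tested.

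**Figure D2:**
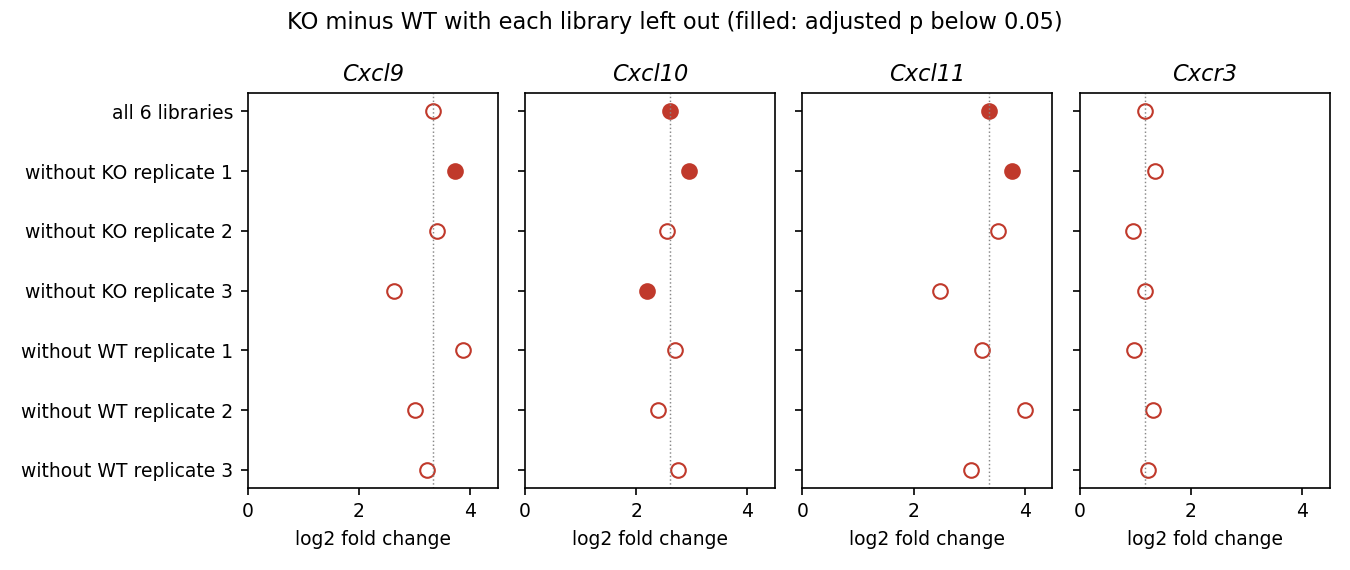
Log2 fold change (KO minus WT) of each gene with all 6 libraries and with each library left out; filled circles passed at an adjusted p below 0.05, open circles did not, and the dotted line marks the value with all libraries. Each value lies above 0, between 0.95 and 4.00, and leaving out KO replicate 1 gives filled circles for all 3 ligands.

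Levels of different genes were compared as TPM, which divides counts by exonic length. In KO lungs Cxcl9 averaged 93.7 ± 64.4 TPM, Cxcl10 69.1 ± 35.2 TPM, Cxcl11 12.6 ± 10.1 TPM and Cxcr3 8.07 ± 2.18 TPM (SD, n = 3). In WT lungs the averages were 10.1 ± 5.64 TPM for Cxcl9, 12.2 ± 2.85 TPM for Cxcl10, 1.33 ± 0.878 TPM for Cxcl11 and 3.86 ± 1.05 TPM for Cxcr3. Within each group Cxcl9 and Cxcl10 were within their spread of each other, and Cxcl11 lay well below both in each of the 6 libraries. Cxcl9 was above Cxcl10 in all 3 KO libraries and in WT replicate 1, and below it in WT replicates 2 and 3. Cxcl11 and Cxcr3 were within their spread in KO lungs, where only KO replicate 3 had more Cxcl11 (23.8 TPM) than Cxcr3 (7.88 TPM); in all 3 WT lungs Cxcr3 was the higher.

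Together the 3 ligands made up 2.72%, 7.40% and 11.3% of the summed TPM of 15 CXC chemokine genes in KO lungs, against 1.32%, 0.689% and 0.992% in WT lungs. Most of that family sum came from Cxcl15, a lung-specific epithelial chemokine. Cxcl9 alone ranked 8th, 6th and 3rd among the 15 in KO replicates 1 to 3 and 9th, 12th and 13th in WT replicates 1 to 3. Within the ligand sum, Cxcl9 held 49.7%, 49.6% and 56.6% in KO lungs and 52.9%, 33.1% and 35.8% in WT lungs. Cxcl11 held 6.11%, 5.71% and 8.27% in KO lungs and 3.38%, 13.7% and 2.69% in WT lungs, so its share overlapped between the groups.

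Ratios within a library asked whether the axis genes moved in proportion. The ligand sum was 11.8, 16.2 and 36.5 times the Cxcr3 level in KO lungs and 11.4, 3.51 and 5.66 times in WT lungs. The log2 ratio was 1.65 higher in KO lungs (4.26 ± 0.84 in KO lungs, 2.61 ± 0.85 in WT lungs, SD, n = 3 each), and the groups did not overlap, although KO replicate 1 and WT replicate 1 nearly touched. A two-sided exact permutation test gave p = 0.1, the smallest that 3 against 3 libraries allow (0.2 after Benjamini-Hochberg adjustment over 4 ratios). Cxcl9 relative to Cxcl10 was 1.13, 1.11 and 1.61 in KO lungs and 1.21, 0.622 and 0.582 in WT lungs, with overlap (exact permutation p = 0.3, adjusted 0.4). Cxcl11 relative to Cxcl10 was 0.138, 0.128 and 0.235 in KO lungs and 0.077, 0.257 and 0.044 in WT lungs, again with overlap (exact permutation p = 0.5). The log2 difference of the Cxcl11 ratio was 0.75, but 0.055 with 1 TPM added to each gene, 0.19 without WT replicate 3 and 1.47 without WT replicate 2.

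Cxcr3 was also set against the T cell receptor complex, as the summed TPM of Cd3d, Cd3e and Cd3g. The ratio was 0.085, 0.123 and 0.090 in KO lungs and 0.048, 0.063 and 0.066 in WT lungs. The groups did not overlap, with a log2 difference of 0.74 (−3.35 ± 0.28 in KO lungs, −4.09 ± 0.25 in WT lungs, SD, n = 3 each). The exact permutation p was 0.1, again the smallest possible, and 0.2 after adjustment.

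**Figure D3:**
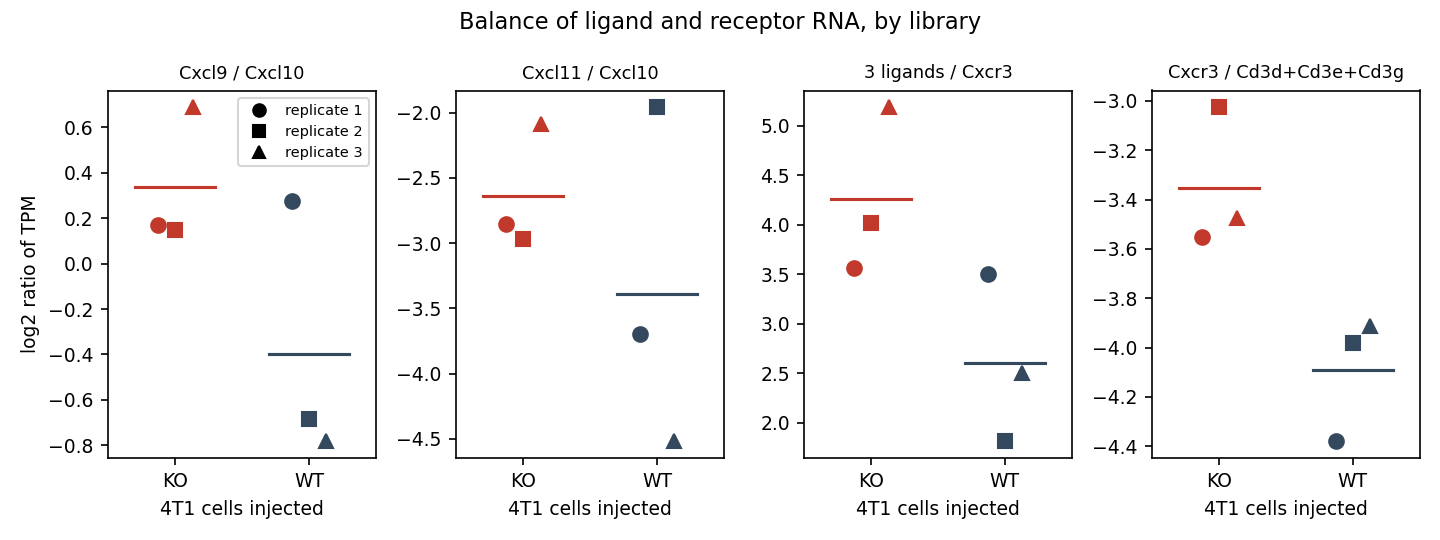
Log2 ratio of TPM within each library for Cxcl9 over Cxcl10, Cxcl11 over Cxcl10, the 3 ligands over Cxcr3, and Cxcr3 over the summed CD3 genes, KO lungs left of WT lungs; symbols are libraries, lines are group means of 3, and each panel has its own axis. The ligand pairs overlap between groups, while the ligand to receptor ratio (11.8 to 36.5 in KO lungs, 3.51 to 11.4 in WT lungs before taking logs) and the Cxcr3 to CD3 ratio do not.

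Of the 12 other CXC chemokine genes, Ppbp alone passed by edgeR, and it fell. By DESeq2 1 was higher and 2 were lower, and at an unadjusted p below 0.05 3 were higher and 2 lower. The median log2 difference of these 12 was 0.45, against 0.01 over all genes tested, and it was 0.28 without KO replicate 2 or without WT replicate 2. Cxcl13, which draws B cells through CXCR5, averaged 9.19 ± 1.96 CPM in KO lungs and 3.24 ± 1.56 CPM in WT lungs (SD, n = 3 each, edgeR adjusted p = 0.0571), with no overlap. Cxcl9, Cxcl10 and Cxcl11 thus had log2 differences above that of each other CXC chemokine measured. The platelet genes differed in the opposite direction. Ppbp was at 3.03, 1.70 and 2.99 CPM in KO lungs and 17.7, 14.2 and 21.8 CPM in WT lungs (log2 fold change −2.79 ± 0.29, edgeR adjusted p = 0.00157). Pf4, the platelet chemokine that in humans is described as a ligand of a CXCR3 variant, was at 9.33, 3.73 and 10.5 CPM in KO lungs and 24.3, 13.3 and 25.6 CPM in WT lungs (−1.42 ± 0.35, edgeR adjusted p = 0.0695).

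Of the 5 other CXC receptor genes none passed by edgeR, against 1 by DESeq2 and 1 at an unadjusted p below 0.05, and their median log2 difference was 0.35 (0.10 without KO replicate 2, 0.22 without WT replicate 3 and 0.56 without WT replicate 2). Cxcr5, the CXCL13 receptor of B cells and follicular T cells, differed by 0.71 ± 0.18 (adjusted p = 0.0749), and the neutrophil receptor gene Cxcr2 by 0.55 ± 0.31 (adjusted p = 0.443). Cxcr6, a receptor of tissue-homing T cells that was named after its values were seen, was at 6.96 ± 4.53 CPM in KO lungs and 6.81 ± 0.867 CPM in WT lungs (SD, n = 3 each).

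**Figure D4:**
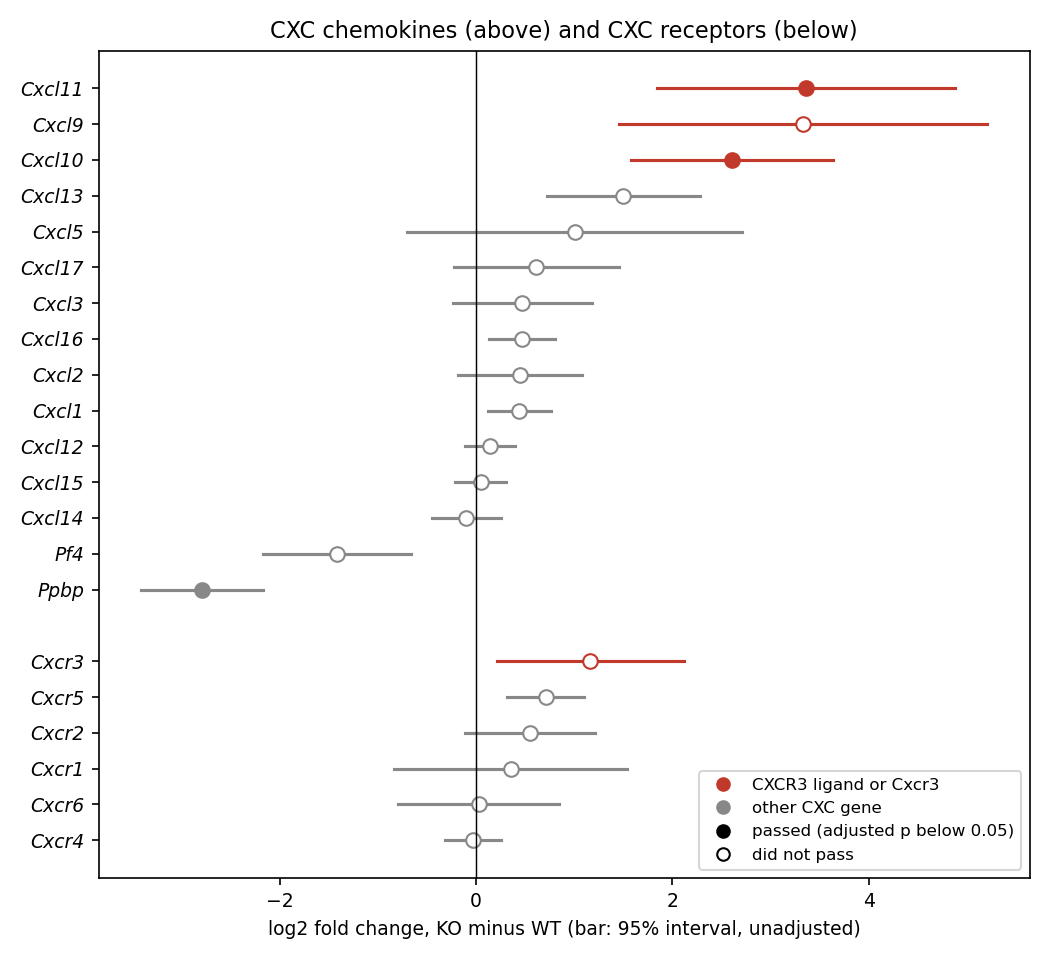
Log2 fold change (KO minus WT) with unadjusted 95% intervals for 15 CXC chemokine genes (top) and 6 CXC receptor genes (bottom), each ordered by size; filled circles passed at an adjusted p below 0.05. Cxcl11, Cxcl9 and Cxcl10 (3.36, 3.33 and 2.61) lie to the right of all other chemokines, Ppbp (−2.79) is the lowest, and Cxcr3 (1.17) is the highest of the receptors without passing.

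Upstream of the ligands, interferon gamma acts through its receptor and the kinases JAK1 and JAK2, with IRF1 as an early target. Of 8 genes of this list, 3 rose, among them Irf1 and the feedback inhibitor gene Socs1, and 5 did not pass (median log2 difference 0.53). Among all tested genes, 1.12% passed as higher, and 10.3% had all KO libraries above all WT libraries. The list was chosen with earlier results of these data known. Irf1 averaged 507.9 ± 55.7 CPM in KO lungs and 269.7 ± 47.1 CPM in WT lungs (log2 fold change 0.91 ± 0.13, edgeR adjusted p = 0.00682). Socs1 was at 17.4, 26.3 and 22.6 CPM in KO lungs and 13.9, 8.34 and 10.6 CPM in WT lungs (1.01 ± 0.23, edgeR adjusted p = 0.0472). Neither gene's groups overlapped. Ifng itself, the cytokine gene, had 12, 19 and 54 counts in KO lungs and 0, 5 and 8 counts in WT lungs. The Ifng groups did not overlap, but its counts were low, and at 2.65 ± 0.99 on the log2 scale it missed the threshold (edgeR adjusted p = 0.22). The receptor and kinase genes stayed close to 0, with log2 differences of 0.14 ± 0.12 for Ifngr1, −0.06 ± 0.16 for Ifngr2, −0.19 ± 0.10 for Jak1 and 0.11 ± 0.13 for Jak2. With 1 library left out, 0 to 3 genes of the list rose.

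Type I interferon also induces Cxcl10 and Cxcl11, with STAT2 and IRF9 among its signal carriers. Of 7 tested genes of that list, Irf7 (log2 fold change 1.42 ± 0.22), Stat2 (0.95 ± 0.13) and Irf9 (0.61 ± 0.13) rose, with a list median of 0.27. Over all tested genes 1.12% passed as higher, and this list too was chosen with earlier results known. With 1 library left out, 1 to 3 genes of the list rose, with 1 gene rising without KO replicate 2 or without WT replicate 1, and the median was 0.17 to 0.37. Ifnar1, Ifnar2, Tyk2 and Irf3 did not pass, and Ifnb1 had 0 counts in all libraries. None of the 6 genes of NF-kB signalling, the other input into the ligand promoters, passed by edgeR (median 0.07), and none did by DESeq2 or at an unadjusted p below 0.05. Among them Tnf was at 78.5 ± 9.05 CPM in KO lungs and 41.7 ± 25.2 CPM in WT lungs (edgeR adjusted p = 0.38). Its groups did not overlap, but came close at KO replicate 2 (71.0 CPM) and WT replicate 3 (70.2 CPM). Without WT replicate 3, 1 gene of the NF-kB list rose, and none did with any other library left out.

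None of the genes listed for the clipping or scavenging of chemokines passed. The list held Dpp4, the surface peptidase that clips all 3 ligands, and the atypical receptor genes Ackr1 to Ackr4. It was not limited to receptors of the 3 ligands. All 5 log2 differences were negative (median −0.20), while 51.0% of all tested genes had a positive one. For Dpp4 and Ackr1 all KO libraries lay below all WT libraries, as they did for 9.4% of all tested genes. By edgeR 0 of 5 passed, by DESeq2 1 was lower, and 1 was lower at an unadjusted p below 0.05. Dpp4 had 163.9, 147.9 and 146.8 CPM in KO lungs and 208.4, 189.1 and 187.5 CPM in WT lungs, with no overlap (log2 difference −0.35 ± 0.10, adjusted p = 0.115). Ackr3, the scavenger of Cxcl11 and Cxcl12, was at 74.3 ± 9.31 CPM in KO lungs and 76.3 ± 8.97 CPM in WT lungs (−0.04 ± 0.13). Of 6 genes that couple or desensitise chemokine receptors, none passed by edgeR or DESeq2, and 3 had an unadjusted p below 0.05; the beta-arrestin gene Arrb2 differed by 0.38 ± 0.14 (adjusted p = 0.203).

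Markers of T cells, NK cells and the type 1 lymphocyte programme did not pass. Differences were positive for 8 of 8 T cell markers, 3 of 5 NK cell markers and 10 of 12 programme genes, against 51.0% of all tested genes. None of 8 T cell markers (median log2 difference 0.40), 5 tested NK cell markers (0.14) and 12 genes of the type 1 lymphocyte programme (0.14) passed by edgeR. By DESeq2, 2 T cell markers, 0 NK cell markers and 1 gene of the programme were higher, and 2, 0 and 2 were higher at an unadjusted p below 0.05. The medians depended on single WT libraries. Without WT replicate 1 they were 0.23 for T cells, −0.11 for NK cells and −0.06 for the programme, and without WT replicate 2 they were 0.67 for T cells, 0.42 for NK cells and 0.54 for the programme. Without KO replicate 1, 1 T cell marker and 2 genes of the programme rose, and without WT replicate 3, 1 gene of the programme rose. Cd3g (0.80 ± 0.21, adjusted p = 0.0805) and Cd8a (0.95 ± 0.25, adjusted p = 0.0881) came nearest among the T cell markers. In the programme, the interleukin 12 receptor gene Il12rb1 differed by 1.52 ± 0.58 (adjusted p = 0.234). Tbx21, the transcription factor that drives Cxcr3 in T cells, was named after its values were seen; it was at 9.11 ± 0.035 CPM in KO lungs and 8.73 ± 1.31 CPM in WT lungs. Summed T cell markers were 126.3 to 178.8 CPM in KO lungs and 91.8 to 133.8 CPM in WT lungs, and NK markers were 104.6 to 121.2 CPM in KO lungs and 68.1 to 140.1 CPM in WT lungs, so both sums overlapped. The NK marker Klra8 had next to no counts.

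Markers of several other cell types also differed between KO and WT lungs, and their part in the chemokine result was not tested. As a scale for the counts below, 1.12% of all tested genes passed by edgeR as higher in KO lungs and 0.336% as lower. At an unadjusted p below 0.05, 8.29% were higher and 14.6% differed in either direction. Of 8 monocyte and macrophage markers, Ly6c2, Ccr2 and Fcgr1 rose. The summed markers were 401.6 to 535.1 CPM in KO lungs and 298.4 to 343.7 CPM in WT lungs. Of 5 plasmacytoid dendritic cell markers, Ccr9 and the interferon-induced Bst2 rose (summed 197.1 to 244.9 CPM in KO lungs, 96.5 to 111.0 CPM in WT lungs). Log2 differences were positive for 4 of these 5 markers, and the lowest was −0.25. Of 4 tested neutrophil markers, S100a8 and S100a9 rose (summed 293.8 to 456.4 CPM in KO lungs, 150.4 to 242.9 CPM in WT lungs). None of 7 conventional dendritic cell markers, 5 B cell markers, 5 endothelial markers, 6 lung epithelial markers, 5 erythroid markers or 5 dividing-cell markers passed, and of 5 fibroblast markers Pdgfra fell. Of those lists without a call by edgeR, DESeq2 called 1 B cell, 1 lung epithelial and 2 dividing-cell markers higher. At an unadjusted p below 0.05, 3 B cell, 1 lung epithelial and 5 dividing-cell markers were higher and 1 endothelial marker was lower. The dividing-cell sum was 75.4 to 142.9 CPM in KO lungs and 51.8 to 73.5 CPM in WT lungs, and the endothelial sum 4376 to 5527 CPM in KO lungs and 4676 to 5881 CPM in WT lungs. Platelet markers summed to 12.5 to 24.3 CPM in KO lungs and 44.6 to 67.8 CPM in WT lungs, and Ppbp fell. By DESeq2, 4 of the 5 plasmacytoid markers were higher and 4 of the 5 platelet markers lower, with the same counts at an unadjusted p below 0.05. With 1 library left out, 1 to 4 monocyte, 1 to 3 plasmacytoid and 0 to 2 neutrophil markers rose.

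The 3 ligand genes lie side by side within 44.1 kb of chromosome 5, and all are read from the minus strand. A gap of 18.6 kb separates Cxcl9 from Cxcl10 and a gap of 10.7 kb Cxcl10 from Cxcl11. Of 12 tested genes within 250 kb of Cxcl10, the ligands Cxcl10 and Cxcl11 rose and none fell. The 9 tested neighbours that are not ligands had log2 differences from −0.26 (Ppef2) to 0.59 (Gm15710) and overlapped between the groups. Sdad1, next to Cxcl9, differed by 0.27 ± 0.18, Nup54, beyond Cxcl11, by 0.09 ± 0.15, and Naaa by 0.39 ± 0.15 (edgeR adjusted p = 0.238). Near Cxcr3 on chromosome X, 5 genes were tested with Cxcr3 included, and none passed. Ogt and Taf1 differed by −0.03 ± 0.12 and −0.07 ± 0.11, Nhsl2 by 0.09 ± 0.18 and the pseudogene H3f3a-ps1 by 0.59 ± 0.44.

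Art3, on the plus strand, spans Cxcl10 and Cxcl11. It had 309, 298 and 317 counts in KO lungs and 329, 340 and 302 counts in WT lungs (log2 difference −0.09 ± 0.17). Its exons share 133 of the 2252 exonic bases of Cxcl10. The pseudogene Gm2673 shares 1582 of the 3794 exonic bases of Cxcl11 on the other strand and had 0 counts in all 6 libraries. The strand setting of the counting is not given in the sources used here, so reads in that stretch may have been counted for Cxcl11 or dropped, and the level of Cxcl11 relative to the other genes is uncertain to that extent. Cxcl9 and Cxcr3 overlap no other annotated gene.

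**Figure D5:**
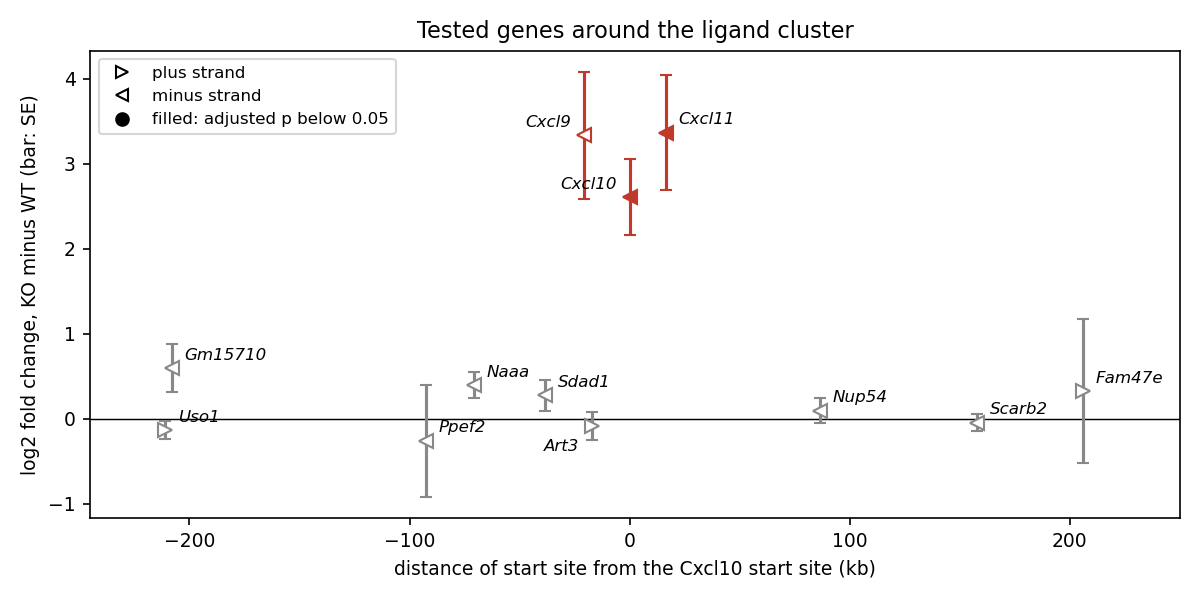
Log2 fold change (KO minus WT, bars are SE) of the 12 tested genes within 250 kb of Cxcl10, against the distance of each annotated start site from that of Cxcl10 in kb; triangles point along the strand and filled ones passed at an adjusted p below 0.05. The 3 ligands stand at 2.61 to 3.36, and the other 9 genes lie between −0.26 and 0.59.

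Promoter sequences were available for 3 of the 4 genes (Cxcl9, Cxcl10 and Cxcr3) in the RefSeq table for GRCm38.p6, each from 250 bases before to 50 bases after the annotated start. Those of Cxcl10 and Cxcl9 are shown because these neighbouring genes had large differences in the same direction. They run 5′ to 3′ on the gene's strand, and capitals mark matches to the interferon, NF-kB, AP-1 and T-box motifs searched.
Cxcl10, chr5:92348840-92349139, minus strand: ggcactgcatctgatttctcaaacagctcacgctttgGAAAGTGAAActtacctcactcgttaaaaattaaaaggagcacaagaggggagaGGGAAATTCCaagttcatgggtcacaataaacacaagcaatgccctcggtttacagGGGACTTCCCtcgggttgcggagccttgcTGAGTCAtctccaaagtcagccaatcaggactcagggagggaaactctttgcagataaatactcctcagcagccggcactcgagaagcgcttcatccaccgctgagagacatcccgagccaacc
Cxcl9, chr5:92328030-92328329, minus strand: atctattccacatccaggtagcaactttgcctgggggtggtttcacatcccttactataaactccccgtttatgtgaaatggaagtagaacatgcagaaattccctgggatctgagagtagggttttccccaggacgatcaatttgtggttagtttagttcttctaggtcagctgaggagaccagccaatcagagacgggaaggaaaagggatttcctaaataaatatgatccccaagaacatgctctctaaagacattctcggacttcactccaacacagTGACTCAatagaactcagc

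The motifs were searched on both strands, and none of the matches shown overlap. The motifs were the core of the interferon-stimulated response element (GAAA, any 2 bases, GAAA), the gamma-activated site (TTC and GAA with any 3 or 4 bases between them), the NF-kB motif, the AP-1 motif (TGANTCA) and the T-box motif (TCACACCT). In the Cxcl10 promoter the response element core GAAAGTGAAA begins 213 bases before the start, and NF-kB matches begin 159 and 103 bases before it (GGGAAATTCC and GGGACTTCCC). An AP-1 match, TGAGTCA, begins 74 bases before the start. Of 32851 promoters of the same length, 3.44% hold the response element core, 4.51% the NF-kB motif and 7.81% the AP-1 motif. The Cxcl9 promoter held an AP-1 match, TGACTCA, 32 bases after the start and none of the other motifs in capitals, and the Cxcr3 promoter held none. The TATA motif TATAAA, left in lower case, was found in the Cxcl9 promoter 195 bases before the start and in 13.6% of all promoters. Gamma-activated sites were found in 8.30% (spacer of 3) and 6.95% (spacer of 4) of all promoters and the T-box motif in 1.28%, and in none of these 3. The NF-kB motif was searched as GGGRNWYYCC (R is A or G, N any base, W A or T, Y C or T). Such matches describe the letters of these windows. Variants of the motifs within the windows, and elements outside them, were not searched.

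Genes whose pattern over the 6 libraries was most like that of each axis gene were found by Pearson correlation of log2 CPM among 12681 genes. Because 6 points are few and differ by group, this is a description, and many genes come close: 109 genes had the same rank order over the libraries as Cxcl9, 152 as Cxcl10, 46 as Cxcl11 and 47 as Cxcr3. Among the 5 nearest to Cxcl10 were the acute-phase gene Saa3, Irgm1, Lgals3bp and Cd74 (r = 0.997 to 0.998), of which Irgm1, Lgals3bp and Cd74 were called higher. The nearest to Cxcl9 were Dhx58, Rcc1, C1qb, Mrpl11 and H2-T23 (r = 0.992 to 0.997), of which Dhx58, a regulator of RNA sensing, and the class I gene H2-T23 were called higher. The nearest to Cxcl11 were Shcbp1, Irf7, Gtf2e1, Lrmda and Plk4 (r = 0.990 to 0.996), and Irf7 was called higher. The nearest to Cxcr3 were Fbxl19, Ptcd2, Snap29, Cstb and Gch1 (r = 0.985 to 0.991), none of which passed.

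By deviations from the group means, which leave out the difference between the groups, Lgals3bp was again among the 5 nearest to Cxcl10 (r = 0.997 over 6 libraries). Upp1 and Col1a2 ranked above it and Jpt1 was also among the 5, and none of these passed. For Cxcl9 the 5 nearest were Timm22, the class II gene H2-DMb2 (r = 0.998), Abhd17a, Mmp23 and Slc39a1. Of these only H2-DMb2 was called higher (log2 fold change 0.88, edgeR adjusted p = 0.0476), and the others did not pass. The 5 nearest to Cxcl11 included Asb2 and Hmcn2, and those to Cxcr3 were led by Kcnab2 and Ros1, none of which passed.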

How the data were processed

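The authors deposited raw read counts for each Ensembl gene. Per the labels, paired-end reads were aligned to mm10 (GRCm38) with STAR 2.5 and counted with HTSeq 0.6.1. Annotation release, strand setting and read filters: not given in the sources used here. Symbols, coordinates and exonic lengths came from GENCODE M21 by Ensembl identifier (34490 of 35275 identifiers matched); 0 rows named no gene. The axis genes and all gene lists were chosen with earlier results of these data known.

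Counts were tested with edgeR 4.0.16 in R 4.3.3 (TMM, filterByExpr with a minimum count of 10, robust quasi-likelihood F-test, group as the only term, two-sided, KO minus WT), with Benjamini-Hochberg adjustment over 15191 genes and a threshold of 0.05. The SE came from the log2 fold change and its F statistic (size over root F). CPM use TMM-scaled library sizes, and TPM use exonic lengths. Values after ± are SD for CPM, TPM and ratios and SE for log2 fold changes and differences of single genes. Ratios were compared by exact permutation tests. A count of 0 allows, at 3 counts, up to 0.177 to 0.204 CPM, for counting error only. In simulations of KO minus WT over 15191 genes the procedure recovered 68.8% of genes changed 2-fold and 98% of those changed 6-fold, with 6.68% of calls false. The changed genes were drawn at random from those with mean log2 CPM above 1. These shares need not hold for a gene as widely spread as Cxcl9 (quasi-likelihood dispersion 15.9).

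Genes were named by rule: the axis genes, Cd274, in each list those that passed or the 3 with the smallest p, genes within 250 kb of Cxcl10 or Cxcr3, and the 5 genes nearest in pattern with mean log2 CPM not under 1 (prior count 2); a few genes that the rule names are not reported here. Between libraries of a group, the chi-square per degree of freedom was 15.4 to 28.8, above sampling noise, and each library was 1 replicate. Separate animals per library are not stated in the labels; the p-values then reflect only how far these samples vary. Alternatives were other scalings, filters, DESeq2 1.42.0, limma-voom 3.58.1, non-robust fits, a replicate block and leaving out each library.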

Additional observations from a re-analysis of the deposited data

How the results depend on the processing

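All log2 fold changes of the axis genes and of Cd274 stayed positive under all 15 alternatives, and the 4 ratio differences under theirs, although that of Cxcl11 to Cxcl10 ranged from 0.055 (1 TPM added) to 1.47 (without WT replicate 2). The calls did not. Without a filter on low counts, Cxcl9 (log2 fold change 3.33, adjusted p = 1.15e-79) and Cd274 (1.64) passed, and 578 genes were higher and 225 lower; there the fit moderated the spread with infinite prior degrees of freedom (dispersion 0.835 for Cxcl9, against 15.9), so this p is not comparable. By DESeq2, Cxcl9 (3.32) and Cd274 (1.64) passed, with 367 genes higher and 231 lower. By limma-voom, Cxcl9 (3.24) and Cd274 (1.52) passed and Cxcl11 (3.17) did not. With robust=FALSE, Cxcl9 (3.33) and Cd274 (1.65) passed. With RLE size factors Cxcl11 (3.36) did not pass. The cause of these changes was not tested beyond the spread given.

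With each library left out in turn, 22 to 404 genes were higher (170 with all libraries) and 2 to 174 lower (51); both highest counts came without KO replicate 1. The log2 fold changes then ranged from 2.64 to 3.88 for Cxcl9, 2.20 to 2.96 for Cxcl10, 2.48 to 4.00 for Cxcl11 and 1.21 to 1.97 for Cd274. Same-numbered libraries did not deviate together (r = 0.027, −0.019 and 0.009 for replicates 1 to 3 over 15191 genes), so the replicate block is given as a check only: it gave 309 genes higher and 96 lower and changed no call among the axis genes (adjusted p of 0.383 for Cxcl9, 0.0213 for Cxcl10, 0.0234 for Cxcl11 and 0.223 for Cxcr3). By Spearman's rho, 3 of the 5 genes nearest to Cxcl10 by Pearson's r were among the 152 that tie at a rho of 1, so the order of nearest genes is not settled by ranks. Low counts limit Cxcl11, Cxcr3 and Ifng.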
